A study of Mus musculus with 6 samples.

Results

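The genes described here are 10 components of the endoplasmic reticulum (ER) folding machinery and of the unfolded protein response: Hspa5, Hsp90b1, Calr, Pdia3, Pdia4, Pdia6, Dnajb9, Sdf2l1, Xbp1 and Herpud1. They were chosen by name, as every probe that carries one of these gene symbols or an older symbol for it (Tra1 for Hsp90b1), and they make up 10 of 19370 measured genes and 17 of 41174 probes. All 17 probes were well above background on all 6 arrays, and 0 were saturated. Of the 10 genes, 4 were covered by several probes and 6 by 1 probe.

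The arrays are single-colour (Cy3) Agilent expression arrays of total RNA from J1, a mouse embryonic stem cell line, harvested 96 hours after transfection. There were 2 arrays with a non-targeting siRNA (NT), 2 with Thoc2 siRNA and 2 with Thoc5 siRNA. The targets are parts of THO, a complex that loads onto new mRNA and helps to pass it to the nuclear export machinery, and the series title names mRNA export of pluripotency genes as its subject. The line was grown in ESGRO medium and transfected in M10 medium, so the controls shared the change of medium and the transfection. The knockdowns were transient and partial, and all arrays came from this 1 line. No label says that the 2 arrays of a group came from separate cultures. The p-values therefore set a difference against the spread between these arrays, which may be technical.

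The ER is where secreted and membrane proteins fold. Chaperones such as BiP (the product of Hspa5) hold unfolded chains, protein disulfide isomerases form and exchange disulfide bonds, and lectin chaperones such as calreticulin hold glycoproteins until they are folded. When unfolded chains build up, the membrane sensors Ire1 (Ern1), Atf6 and Perk (Eif2ak3) start the unfolded protein response: Ire1 splices the Xbp1 mRNA, Atf6 is cut into a transcription factor, and Perk slows translation through eIF2α and raises Atf4. Spliced Xbp1 and cleaved Atf6 raise the chaperone genes through promoter elements called ERSE and ERSE-II, and Herpud1 and Dnajb9 serve the removal of misfolded proteins by ER-associated degradation.

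The promoters are shown first, because several of the 10 genes hold an ERSE match and Herpud1 holds an ERSE-II match. RefSeq promoter records (build GRCm38.p6) matched 10 of 10 genes. Each record, which also holds bases after the transcription start, was searched on both strands for ERSE (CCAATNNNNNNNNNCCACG), ERSE-II (ATTGGNCCACG), UPRE (TGACGTGG) and the core CCACG. Counts and shares cover whole records, and the sequences below show only bases before the start. The core is contained in ERSE and in ERSE-II. ERSE was found in 4 of the 10 genes, Hspa5, Hsp90b1, Calr and Pdia6, and in 39 of 32851 promoters of the same length (0.119%). ERSE-II was found in Herpud1 and in 12 promoters in all (0.0365%), UPRE in 0 of the 10 genes (0.676% of promoters), and the core in 8 of the 10 genes (32.8% of promoters). In the sequences below capitals mark the fixed letters at the ends of each ERSE or ERSE-II match, on the strand of the gene, 5′ to 3′.
Hspa5, chr2:34771840-34772089, plus strand: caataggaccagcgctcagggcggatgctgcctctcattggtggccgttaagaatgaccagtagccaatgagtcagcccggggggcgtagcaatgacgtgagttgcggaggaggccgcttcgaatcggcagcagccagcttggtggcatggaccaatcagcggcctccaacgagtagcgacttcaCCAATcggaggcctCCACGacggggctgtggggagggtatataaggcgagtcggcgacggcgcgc
Herpud1, chr8:94386179-94386428, plus strand: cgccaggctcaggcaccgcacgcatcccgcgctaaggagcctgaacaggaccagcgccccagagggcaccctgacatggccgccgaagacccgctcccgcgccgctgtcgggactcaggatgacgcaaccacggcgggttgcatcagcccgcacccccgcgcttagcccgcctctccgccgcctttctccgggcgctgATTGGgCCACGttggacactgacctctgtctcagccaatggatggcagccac
Hsp90b1, chr10:86705445-86705694, minus strand: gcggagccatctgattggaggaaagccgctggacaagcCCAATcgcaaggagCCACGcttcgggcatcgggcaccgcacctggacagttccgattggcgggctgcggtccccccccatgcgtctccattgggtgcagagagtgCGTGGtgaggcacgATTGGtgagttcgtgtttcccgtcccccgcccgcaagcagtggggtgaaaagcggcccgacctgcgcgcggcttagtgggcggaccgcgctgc
Calr, chr8:84847045-84847123, minus strand: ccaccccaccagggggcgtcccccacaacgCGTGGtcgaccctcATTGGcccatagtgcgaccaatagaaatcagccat
Pdia6, chr12:17266461-17266539, plus strand: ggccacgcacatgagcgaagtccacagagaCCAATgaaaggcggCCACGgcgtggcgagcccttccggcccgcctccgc
The Hspa5 match lay 65 to 47 bases before the start, the Herpud1 match 52 to 42 bases, and the Pdia6 match 98 to 80 bases. Hsp90b1 held 2 matches, 212 to 194 bases before the start on the gene's strand and 107 to 89 bases on the opposite strand, and the Calr match, 162 to 144 bases before the start, was on the opposite strand. A match is a run of letters and was not tested as a binding site. ERSE and ERSE-II are, as said above, known elements of ER chaperone genes. The counts therefore describe these promoters, and no enrichment was tested.

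Levels below are log2 of the processed signal, scaled so that 0 is the array's own 75th percentile, and a level of one probe is not comparable with that of another. The 75th percentile signal ranged from 729 to 909 on 5 arrays and was 307 on Thoc5 replicate 1. Feature Extraction marked 880 spots of Thoc2 replicate 1 as outliers, against 63 to 155 on the other arrays, and the 25th percentile signal there was 17.1 against 2.62 to 10.6. Thoc2 replicate 1 was also the only array scanned on another day, and it and Thoc5 replicate 1 each lay on a slide with no other array of the series. The siRNA targets were lower with their own siRNA, Thoc2 at 54.6% of NT (log2 difference -0.87 ± 0.28; errors here and below are the SE of the limma fit, n = 2 arrays per group) and Thoc5 at 41.5% (-1.27 ± 0.27); neither passed the adjusted threshold (limma, adjusted p = 0.295 and 0.129). Of 10 embryonic stem cell markers 9 were measured, all well above background in every group. On the linear scale their levels summed to 1003 to 1056 with NT, 812 to 858 with Thoc2 and 799 to 1006 with Thoc5 siRNA. Such a sum mostly reads the brightest probe, here that of Dppa5a, with an NT mean of 9.28. Pou5f1 was at 74.4% of NT with Thoc2 siRNA and 54.6% with Thoc5 siRNA (limma, adjusted p = 0.434 and 0.150). For 16 measured markers of extraembryonic endoderm, a secretory cell type, the sums were 55.3 to 69.1, 55.0 to 65.9 and 54.8 to 89.4. Of the 18 markers listed, Afp and Ttr were not well above background with NT or Thoc5 siRNA, nor was Ttr with Thoc2 siRNA. For 13 measured fibroblast markers the sums were 20.5 to 24.1, 19.8 to 20.4 and 18.4 to 21.6.

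Set against NT siRNA, Herpud1 and Pdia6 stood lower on all 4 knockdown arrays with replicates close together, Herpud1 at 69.4% of NT with Thoc2 siRNA and 62.9% with Thoc5 siRNA, and Pdia6 at 86.6% and 75.6%. Calr was slightly higher on all 4, and the group means of Hsp90b1 and Pdia3 were within 0.12 log2 of the NT mean. Hspa5, Dnajb9 and Sdf2l1 had the largest differences with Thoc2 siRNA, and these, like that of Xbp1, came mostly from 1 of the 2 arrays. None of the 10 genes passed the adjusted threshold of 0.05 in any of the 4 comparisons (limma, Benjamini-Hochberg over all genes), where 0% of all genes did; at an unadjusted p under 0.05 limma gave 2813 genes (14.5%) for Thoc2 siRNA against NT, 3783 (19.5%) for Thoc5 siRNA against NT, 3725 (19.2%) for the mean of both against NT and 1748 (9.02%) for Thoc5 against Thoc2 siRNA.

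**Figure D1:**
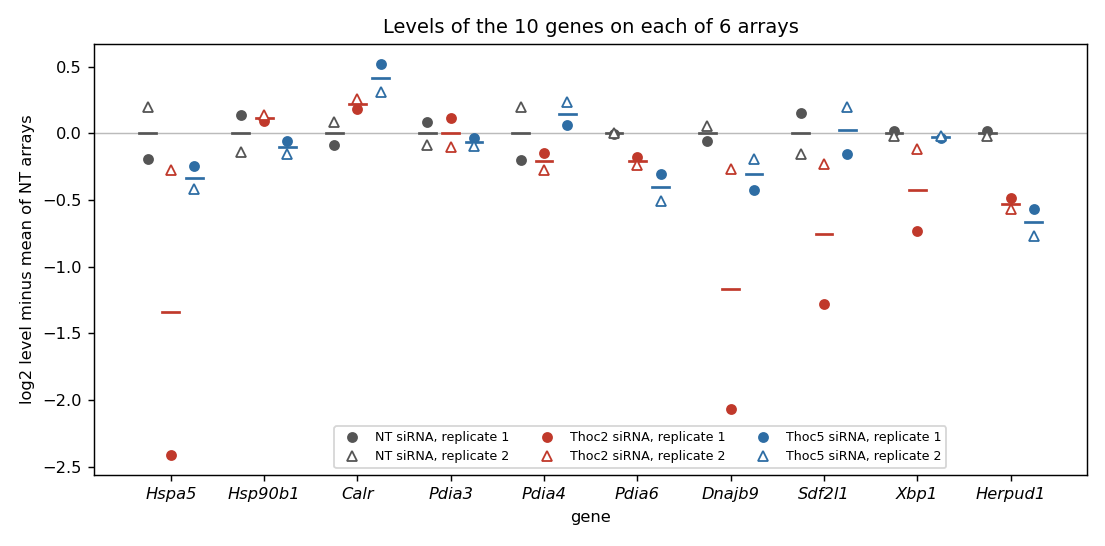
Levels of the 10 genes on each of the 6 arrays, as the log2 level minus the mean of the 2 NT arrays; symbols are arrays, horizontal ticks are group means. Herpud1 lies below NT on all 4 knockdown arrays, while Hspa5, Dnajb9, Sdf2l1 and Xbp1 are far below NT on Thoc2 replicate 1 alone.

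Counted without a test, 6 of the 10 genes had both Thoc2 siRNA arrays below both NT arrays (Hspa5, Pdia6, Dnajb9, Xbp1, Herpud1 and Sdf2l1), where 21.5% of all genes did, and Calr alone had both above (25.5% of all genes). With Thoc5 siRNA 4 of 10 were lower without overlap (Hspa5, Pdia6, Dnajb9 and Herpud1), against 30.9% of all genes, and again Calr alone was higher (21.8%). These 4 genes were the ones lower in both knockdowns, against 16.6% of all genes, and Calr alone was higher in both (14.2%); the comparisons share their NT arrays. Leaving out a knockdown array leaves 1 to set against NT, so the counts among the 10 genes cannot fall and do not test the result. Without Thoc2 replicate 1, 8 of 10 were lower (31.8% of all genes) and 1 was higher (46.6%). Without Thoc5 replicate 1, the dimmest array, 6 were lower (38.5%) and 3 higher (35.7%). The median difference over the 10 genes was -0.32 with Thoc2 siRNA and -0.08 with Thoc5 siRNA, where the median over all genes was 0.05 and -0.08.

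**Figure D2:**
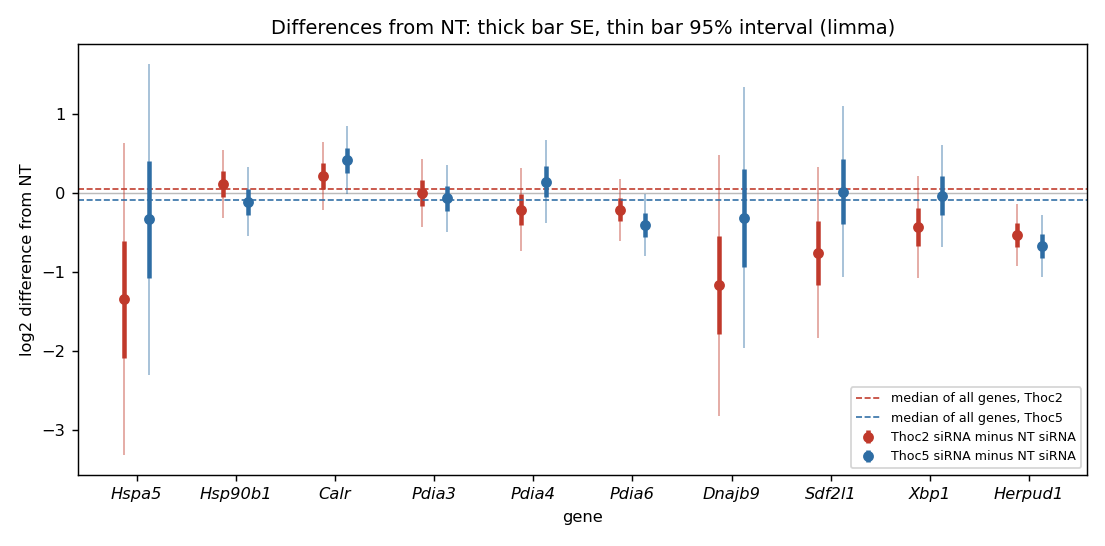
Log2 difference from NT for Thoc2 siRNA and Thoc5 siRNA, with the SE (thick) and the 95% interval (thin) of the limma fit, 2 arrays per group; dashed lines are the medians of all genes. The 95% intervals of Herpud1 lie below 0 in both knockdowns, and those of Hspa5 and Dnajb9 are the widest.

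Herpud1 encodes a membrane protein of the ER that brings ubiquitin ligase complexes together for ER-associated degradation, and its promoter held the ERSE-II match shown above. Its probe lies at chr8:92984261-92984320 (mm7, plus strand). Herpud1 was at 1.64 and 1.60 on the NT arrays, 1.13 and 1.05 on the Thoc2 siRNA arrays, and 1.05 and 0.85 on the Thoc5 siRNA arrays. All 4 knockdown arrays were below both NT arrays, and the gap between groups was wider than the spread within any of them. The log2 difference was -0.53 ± 0.15 with Thoc2 siRNA and -0.67 ± 0.15 with Thoc5 siRNA, with 95% intervals of -0.92 to -0.13 and -1.06 to -0.27. Herpud1 did not pass the adjusted threshold in either (limma, unadjusted p = 0.0198 and 0.00839, adjusted p = 0.268 and 0.133). It was 1 of 10 genes lower at an unadjusted p under 0.05 with Thoc2 siRNA (6.65% of all genes) and, with Pdia6, 1 of 2 with Thoc5 siRNA (12% of all genes).

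The mean of both knockdowns against NT gave Herpud1 -0.60 ± 0.13 (limma, adjusted p = 0.134), and it alone of the 10 genes was lower at an unadjusted p under 0.05 there (10.4% of all genes). With variances fitted to an intensity trend and made robust the same difference passed the threshold (adjusted p = 0.049, where 3.38% of all genes were called), and over the alternatives its adjusted p ranged from 0.049 to 0.495. On the slides that hold an NT and a knockdown array together, Herpud1 differed by -0.59 (Thoc2 replicate 2 minus NT replicate 1) and -0.75 (Thoc5 replicate 2 minus NT replicate 2). Stem cell markers were lower beside these differences: 9 of 9 measured markers were below NT in both knockdowns. Their median was -0.31 with Thoc2 siRNA and -0.35 with Thoc5 siRNA, where that of all genes was 0.05 and -0.08. None of the 9 passed the adjusted threshold (limma). At an unadjusted p under 0.05, 1 was lower with Thoc2 siRNA (6.65% of all genes) and 3 with Thoc5 siRNA (12%). Of the 16 extraembryonic endoderm markers 6 were above NT with Thoc2 siRNA (median -0.10) and 12 with Thoc5 siRNA (median 0.59), and 14 were higher with Thoc5 than with Thoc2 siRNA (median 0.63). None of the 16 passed the adjusted threshold (limma), with an unadjusted p under 0.05 for 0 in each knockdown against NT. The part of either marker list in the results for the 10 genes was not tested. The RNA came from whole cultures, so fewer cells of a type and less mRNA per cell cannot be told apart.

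The classical chaperones come next. Hspa5 encodes BiP, the Hsp70 of the ER lumen and the protein that holds the sensors inactive in resting cells. Its only probe lies at chr2:34783421-34783480 (mm7, plus strand). Hspa5 was at 5.77 and 6.17 on the NT arrays, 3.56 and 5.70 on the Thoc2 siRNA arrays, and 5.73 and 5.55 on the Thoc5 siRNA arrays. All 4 knockdown arrays were below both NT arrays, but Thoc2 replicate 1 was 2.14 below its own replicate while the other 5 arrays lay between 5.55 and 6.17. The log2 difference of -1.34 ± 0.74 with Thoc2 siRNA (limma, adjusted p = 0.464) was -0.27 without that array and -0.08 within the slide shared by Thoc2 replicate 2 and NT replicate 1. With Thoc5 siRNA it was -0.33 ± 0.74 (adjusted p = 0.848), and -0.61 within the shared slide.

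Hsp90b1 encodes Grp94, the Hsp90 of the ER. It was at 6.0 and 5.72 on the NT arrays, 5.96 and 6.0 on the Thoc2 siRNA arrays, and 5.80 and 5.70 on the Thoc5 siRNA arrays. The groups overlapped, and the differences were 0.12 ± 0.16 and -0.11 ± 0.16 (limma, adjusted p = 0.762 and 0.777). The 95% intervals were -0.32 to 0.55 and -0.54 to 0.33, so these arrays bound a change in Hsp90b1 and do not show that it was level. Its other probe, 7559 genomic bases upstream, gave 0.12 ± 0.20 and 0.00 ± 0.20.

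Calr encodes calreticulin, the soluble lectin chaperone that also stores calcium. Its represented probe lies at chr8:83428403-83428462 (mm7, minus strand). Calr was at 3.79 and 3.96 on the NT arrays, 4.06 and 4.13 on the Thoc2 siRNA arrays, and 4.40 and 4.19 on the Thoc5 siRNA arrays. All 4 knockdown arrays were above both NT arrays, by 0.22 ± 0.16 and 0.42 ± 0.16 on average (limma, adjusted p = 0.565 and 0.264). Background correction by normexp, which shifted the median of all genes by 0.23 and 0.33 in these comparisons, took the Calr differences to -0.05 and 0.01. The second Calr probe, 2337 genomic bases upstream, differed by 0.46 ± 0.28 and 0.66 ± 0.28, with the NT arrays at 0.22 and -0.38, Thoc2 siRNA at 0.61 and 0.15, and Thoc5 siRNA at 0.60 and 0.56. On that probe the Thoc2 siRNA arrays overlapped NT and the Thoc5 siRNA arrays did not.

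The disulfide isomerases gave small differences. Pdia6 encodes P5, an isomerase that works beside BiP. Its brightest probe, at chr12:17333185-17333244 (mm7, plus strand), was at 6.02 and 6.03 on the NT arrays, 5.85 and 5.79 on the Thoc2 siRNA arrays, and 5.72 and 5.52 on the Thoc5 siRNA arrays. All 4 knockdown arrays were below NT, by 0.24 or less with Thoc2 siRNA, and the Thoc5 siRNA arrays were below the Thoc2 siRNA arrays as well. The log2 difference was -0.21 ± 0.15 with Thoc2 siRNA and -0.40 ± 0.15 with Thoc5 siRNA (limma, unadjusted p = 0.224 and 0.0466, adjusted p = 0.553 and 0.248).

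The 4 Pdia6 probes did not all show this. The probe nearest the 3′ end gave -0.31 ± 0.15 and -0.53 ± 0.15 for Thoc2 and Thoc5 siRNA. The probe 2179 genomic bases upstream of it, a dim one at -1.63 and -1.65 on the NT arrays, gave -0.01 ± 0.17 and -0.33 ± 0.17. The farthest probe, 14091 genomic bases upstream, gave 0.05 ± 0.21 and 0.26 ± 0.21, with the NT arrays at 1.39 and 1.17, Thoc2 siRNA at 1.55 and 1.12, and Thoc5 siRNA at 1.57 and 1.52. With Thoc5 siRNA 3 of the 4 probes were therefore below NT on both arrays and the farthest was above NT on both. Probes were not placed in exons, so whether a difference runs along the whole mRNA was not tested. The farthest upstream probes of Pdia6 and Calr are shown, and no letters are in capitals.
Pdia6 probe A_52_P339495, chr12:17319454-17319513 (mm7), plus strand: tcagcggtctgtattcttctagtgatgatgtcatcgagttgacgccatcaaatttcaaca
Calr probe A_52_P672212, chr8:83430740-83430799 (mm7), minus strand: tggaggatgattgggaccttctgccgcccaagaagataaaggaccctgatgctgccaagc
The difference between the Pdia6 probes was not tested.

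**Figure D3:**
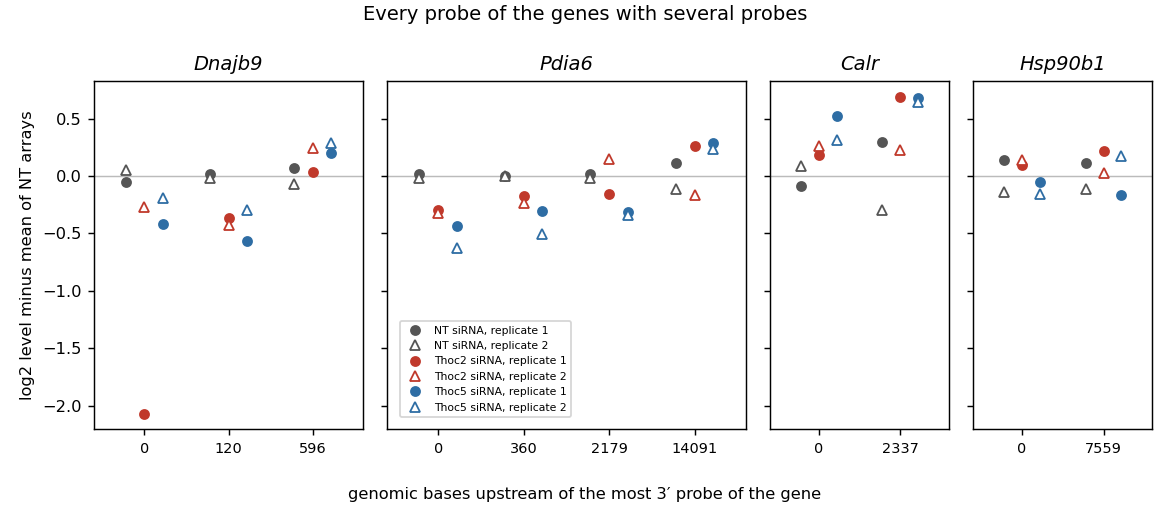
Every probe of Dnajb9, Pdia6, Calr and Hsp90b1, ordered by its distance in genomic bases upstream of the gene's most 3′ probe (horizontal, not to scale); the vertical axis is the log2 level minus the mean of the NT arrays. The low value of Dnajb9 on Thoc2 replicate 1 appears on 1 of 3 probes, and the farthest Pdia6 probe lies above 0 on both Thoc5 siRNA arrays.

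Pdia3 encodes ERp57, which works with calreticulin and calnexin on glycoproteins. It was at 3.68 and 3.51 on the NT arrays, 3.71 and 3.49 on the Thoc2 siRNA arrays, and 3.56 and 3.50 on the Thoc5 siRNA arrays. The groups overlapped, with differences of 0.01 ± 0.16 and -0.06 ± 0.16 and 95% intervals of -0.42 to 0.44 and -0.49 to 0.36. Pdia4 encodes ERp72, an isomerase with an additional active site. It was at 1.34 and 1.74 on the NT arrays, 1.39 and 1.27 on the Thoc2 siRNA arrays, and 1.60 and 1.77 on the Thoc5 siRNA arrays. The groups overlapped NT, and Pdia4 was 0.36 ± 0.20 higher with Thoc5 than with Thoc2 siRNA (limma, adjusted p = 0.639).

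The cochaperones and Xbp1 shared the low value of Hspa5 on Thoc2 replicate 1. Dnajb9 encodes ERdj4, a J-domain cochaperone of BiP that aids degradation of misfolded proteins. Its brightest probe, at chr12:42082310-42082369 (mm7, minus strand), was at -0.49 and -0.38 on the NT arrays, -2.50 and -0.70 on the Thoc2 siRNA arrays, and -0.85 and -0.63 on the Thoc5 siRNA arrays. All 4 knockdown arrays were below NT, and Thoc2 replicate 1 was 1.65 below the lowest of the other arrays. The log2 difference was -1.17 ± 0.62 with Thoc2 siRNA (limma, adjusted p = 0.45) and -0.27 without that array.

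Dnajb9 also has a probe 120 genomic bases upstream and another 596 bases upstream. The first was at -1.87 and -1.90 on the NT arrays, -2.25 and -2.31 on the Thoc2 siRNA arrays, and -2.45 and -2.19 on the Thoc5 siRNA arrays. It was below NT on all 4 knockdown arrays with the Thoc2 replicates 0.06 apart, a difference of -0.39 ± 0.16 with Thoc2 siRNA and -0.43 ± 0.16 with Thoc5 siRNA. The second was 0.14 ± 0.16 and 0.24 ± 0.16 above NT, with the Thoc2 replicates at -1.47 and -1.26. Neither probe showed the low value of Thoc2 replicate 1.

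Sdf2l1 encodes a partner of BiP and of its ER J-proteins. Its probe lies at chr16:16680066-16680125 (mm7, minus strand). Sdf2l1 was at 1.72 and 1.41 on the NT arrays, 0.28 and 1.34 on the Thoc2 siRNA arrays, and 1.41 and 1.76 on the Thoc5 siRNA arrays. Both Thoc2 siRNA arrays were below NT, replicate 2 by less than the NT arrays differ from each other, and the Thoc5 siRNA arrays overlapped NT. The difference was -0.76 ± 0.41 with Thoc2 siRNA (limma, adjusted p = 0.454), -0.23 without Thoc2 replicate 1, and 0.02 ± 0.41 with Thoc5 siRNA.

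Xbp1 encodes the transcription factor whose mRNA Ire1 splices. Its probe matches both the unspliced and the spliced mRNA, so its level says nothing of splicing; it is printed to show what was measured.
Xbp1 probe A_52_P185079, chr11:5476970-5477029 (mm7), plus strand: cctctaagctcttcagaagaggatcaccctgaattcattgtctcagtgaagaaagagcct
Xbp1 was at 1.13 and 1.09 on the NT arrays, 0.38 and 0.99 on the Thoc2 siRNA arrays, and 1.08 and 1.09 on the Thoc5 siRNA arrays. The Thoc5 siRNA arrays lay within 0.05 of the NT mean, and only Thoc2 replicate 1 stood well below. The difference was -0.42 ± 0.24 with Thoc2 siRNA (limma, adjusted p = 0.475), -0.12 without that array, and -0.03 ± 0.24 with Thoc5 siRNA, with a 95% interval of -0.67 to 0.62.

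Thoc2 replicate 1 was the lowest of the 6 arrays by more than 0.5 for 4 of the 10 genes (Hspa5, Dnajb9, Sdf2l1 and Xbp1), where 3.25% of 19025 genes measured on all arrays were. It was lowest by more than 1 for 3 of the 10, against 1.62% of genes. The gaps were 2.0 for Hspa5, 1.65 for Dnajb9, 1.05 for Sdf2l1 and 0.61 for Xbp1. Among other genes of the same compartment it was lowest by more than 0.5 for 2 of 45 further chaperones and folding enzymes (Ero1a and Sil1), 1 of 29 degradation genes (Marchf6), 1 of 31 translocon genes (Sec11a), 0 of 17 sensors and factors and 0 of 13 genes of the Perk and Atf4 arm. Most genes of these lists did not share the low value, and the 4 genes were picked out after their values were seen.

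None of the 102 spots of the 10 genes was marked as an outlier, and the variation between pixels of a spot was 3.87% to 26.5%. For Hspa5 it was 16.4% on Thoc2 replicate 1 and 8.51% to 16.8% on the other arrays, with a mean signal of 6584 there against 15447 to 58632 elsewhere and a local background of 34.0 to 39.5. The spot was thus well above its surroundings on every array. The scan day and the number of outlier spots set Thoc2 replicate 1 apart from the rest. The part of day and slide in the low values cannot be told apart from that of the sample, since no other array shared either with it. Dnajb9, measured by 3 probes, was low there on 1 of them.

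**Figure D4:**
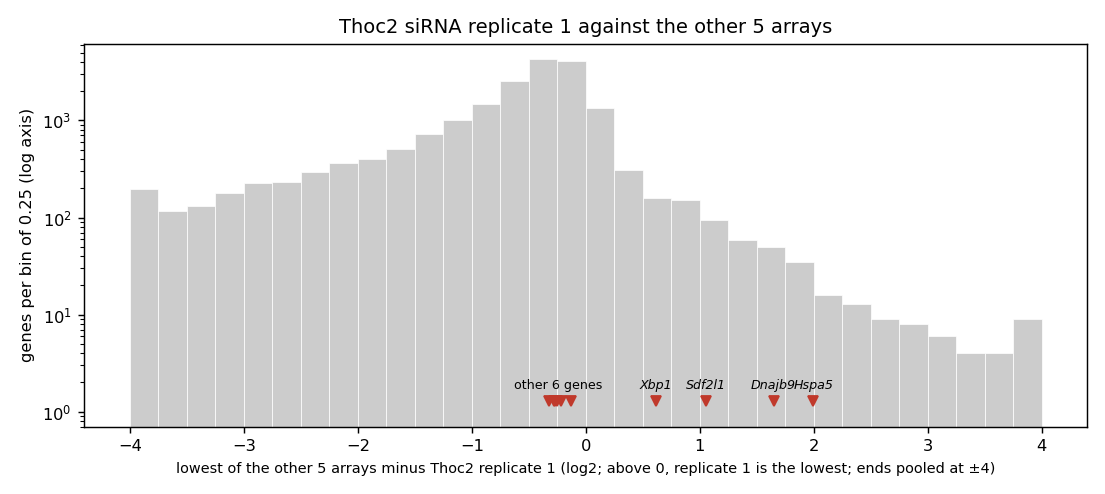
Lowest level among the other 5 arrays minus the level on Thoc2 replicate 1 (log2, horizontal) for 19025 genes in bins of 0.25 (bars, log axis); triangles mark the 10 genes. Hspa5, Dnajb9, Sdf2l1 and Xbp1 lie to the right, at 2.0, 1.65, 1.05 and 0.61, and the other 6 lie below 0.

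The mean of the 10 genes, each centred on its own mean, was -0.50 on Thoc2 replicate 1 and 0.02 to 0.20 on the other arrays. The genes outside the set whose pattern over the 6 arrays was most like it were Tmem177, Ttll1, Btf3, Csnk1g3 and a transcript named in the files only by an Ensembl ID, with Pearson correlations of 0.995 to 0.996. Of 19015 genes compared 182 (0.957%) had a correlation over 0.95. Tmem177, for example, was at -2.66 on Thoc2 replicate 1 and between -0.91 and -0.45 elsewhere. The likeness describes 6 points dominated by 1 array.

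Thoc5 siRNA and Thoc2 siRNA were also compared directly. Of the 10 genes 4 were higher with Thoc5 siRNA without overlap (Calr, Pdia4, Xbp1 and Sdf2l1), against 14.1% of all genes, and 3 were lower (Hsp90b1, Pdia6 and Herpud1), against 31.4%. The largest differences were in Hspa5 (1.01 ± 0.74), Dnajb9 (0.86 ± 0.62) and Sdf2l1 (0.78 ± 0.41), with adjusted p of 0.694, 0.691 and 0.627 (limma). Without Thoc2 replicate 1 these were -0.06, -0.04 and 0.25. Herpud1 differed by -0.14 ± 0.15 between the knockdowns, with a 95% interval of -0.54 to 0.26.

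The rest of the pathway was read from 5 lists. Among 17 sensors and transcription factors 0 passed the adjusted threshold, 7 were above and 10 below 0 with Thoc2 siRNA (median -0.04), and 10 above and 7 below with Thoc5 siRNA (median 0.18). Creb3, an ER-bound factor released by cleavage as Atf6 is, was at 0.89 and 0.67 on the NT arrays, 1.53 and 1.62 on the Thoc2 siRNA arrays, and 1.96 and 1.79 on the Thoc5 siRNA arrays. The groups did not overlap, with differences of 0.79 ± 0.16 and 1.10 ± 0.16 (limma, adjusted p = 0.225 and 0.104). Of the 3 sensors, named for their role, Ern1 differed by 0.63 ± 0.29 and 0.86 ± 0.29, Atf6 by 0.31 ± 0.21 and 0.27 ± 0.21, and Eif2ak3 by -0.05 ± 0.14 and 0.24 ± 0.14. Nfyb, a subunit of the factor that binds the CCAAT end of ERSE, differed by -0.41 ± 0.15 with Thoc2 siRNA and -0.42 ± 0.15 with Thoc5 siRNA (limma, adjusted p = 0.333 and 0.24).

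In the Perk and Atf4 arm 12 of 13 genes were below 0 with Thoc2 siRNA (median -0.40) and 8 of 13 with Thoc5 siRNA (median -0.15), and 0 passed the adjusted threshold. Trib3, a pseudokinase target of Atf4, differed by -0.77 ± 0.16 with Thoc2 siRNA and -0.73 ± 0.16 with Thoc5 siRNA, and Cebpb, a transcription factor, by -1.23 ± 0.25 and -1.0 ± 0.25 (limma, adjusted p = 0.225 for each with Thoc2 siRNA). With Thoc5 siRNA the smallest p belonged to Nupr1, a stress-induced nuclear protein (-2.54 ± 0.41, beside -1.98 ± 0.41 with Thoc2 siRNA), and to Atf3, a stress-induced factor of the Atf family (1.38 ± 0.24), with adjusted p of 0.106 and 0.111. Atf3 was at -1.97 and -2.58 on the NT arrays, -2.66 and -2.70 on the Thoc2 siRNA arrays, and -0.93 and -0.86 on the Thoc5 siRNA arrays. The Thoc5 siRNA arrays were above both NT arrays and the Thoc2 siRNA arrays below both, and the knockdowns differed by 1.78 ± 0.24 (limma, adjusted p = 0.419). Ddit3, next by p between the knockdowns, was 0.96 ± 0.47 higher with Thoc5 than with Thoc2 siRNA (limma, adjusted p = 0.617). Both knockdowns overlapped NT for Ddit3, whose NT arrays were at 0.34 and -1.0.

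Of 29 other genes of ER-associated degradation 22 were above 0 in each knockdown, with medians of 0.13 and 0.17, and 0 passed the adjusted threshold. Sel1l, the adaptor of the Hrd1 ubiquitin ligase with which Herpud1 works, was at -1.80 and -1.96 on the NT arrays, -1.43 and -1.20 on the Thoc2 siRNA arrays, and -1.07 and -1.38 on the Thoc5 siRNA arrays. All 4 knockdown arrays were above NT, by 0.57 ± 0.19 and 0.66 ± 0.19 (limma, adjusted p = 0.308 and 0.182), where Herpud1 was below it on all 4. Nploc4, a cofactor of the p97 ATPase, differed by 0.40 ± 0.15 with Thoc5 siRNA and 0.20 ± 0.15 with Thoc2 siRNA.

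Among 45 further chaperones and folding enzymes 25 were below 0 in each knockdown (medians -0.04 and -0.05), and 0 passed the adjusted threshold. The prolyl isomerases Fkbp11 and Fkbp7 had the smallest p with Thoc2 siRNA (-0.86 ± 0.19 and -0.77 ± 0.19), and Fkbp11 was at -0.86 ± 0.19 with Thoc5 siRNA too. Sec63, the J-domain protein that recruits BiP to the translocon, and Fkbp7 had it with Thoc5 siRNA (-1.16 ± 0.18 and -0.86 ± 0.19; limma, adjusted p = 0.106 and 0.13). Sec63 was at 0.88 and 1.19 on the NT arrays, 0.24 and 0.46 on the Thoc2 siRNA arrays, and -0.12 and -0.13 on the Thoc5 siRNA arrays, lower on all 4 knockdown arrays.

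The translocon, signal peptidase and oligosaccharyltransferase list split evenly, with 17 of 31 measured genes below 0 with Thoc2 siRNA and 16 with Thoc5 siRNA, and 0 past the adjusted threshold. Ost4, a small subunit of the oligosaccharyltransferase, differed by -0.52 ± 0.16 and -0.63 ± 0.16 in the knockdowns, and Stt3b, a catalytic subunit, by -0.53 ± 0.14 and -0.47 ± 0.14. Srp68, a protein of the signal recognition particle, differed by 0.47 ± 0.13 with Thoc5 siRNA and 0.0081 ± 0.13 with Thoc2 siRNA. With Thoc2 siRNA the median of the 10 genes (-0.32) was below that of each list except the Perk and Atf4 arm. Taken array by array and relative to all genes, the median of the 10 genes was about as low on both Thoc2 siRNA arrays, -0.35 on replicate 1 and -0.34 on replicate 2.

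**Figure D5:**
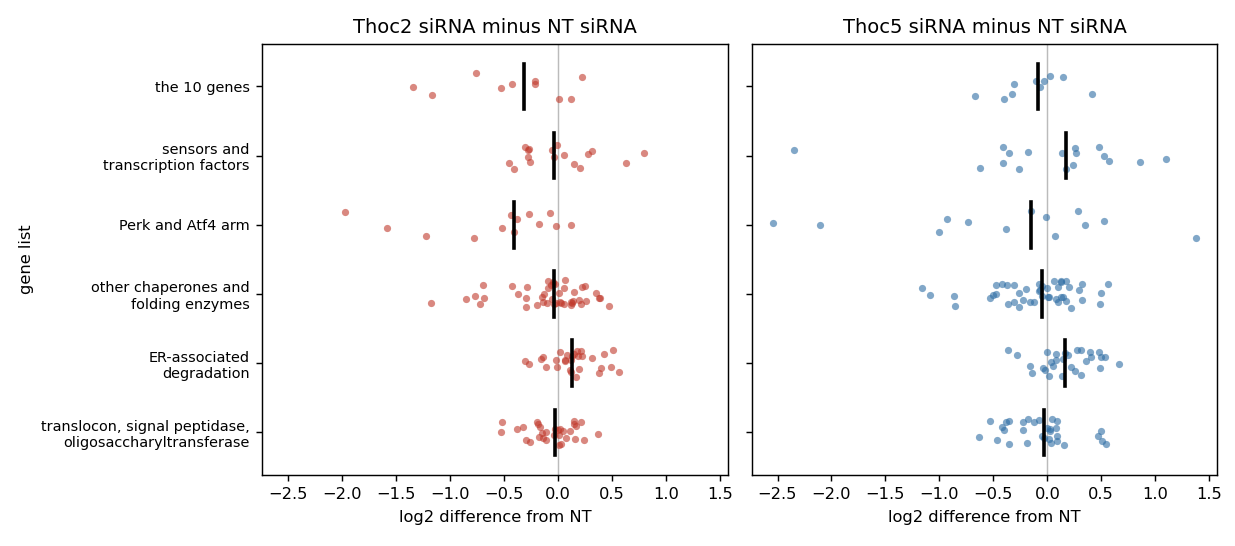
Log2 difference from NT of every measured gene in the 10-gene set and in 5 pathway lists, for Thoc2 siRNA (left) and Thoc5 siRNA (right); points are genes, spread vertically at random, and black bars are medians. The degradation list has its medians above 0 in both (0.13 and 0.17), and the 10 genes have theirs at -0.32 and -0.08.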

How the data were processed

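Per the labels, RNA was labelled with Cy3 (Low Input Quick Amp kit). Per the file headers, the authors' scanner files hold spot intensity from Agilent Feature Extraction 9.5.3.1 (11.0 in the submitters' processing notes), with a background-subtracted processed signal, and probe positions on mm7. A deposited series table, whose making no header states, was read from its values as quantile-normalized log2 of that signal: it ranked spots exactly as the processed signal does, and its median was 5.95 on every array.

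Here control spots and outlier-marked spots were dropped and log2 processed signal was scaled to each array's 75th percentile. Probes had to be well above background (in at least 0.5 of their spots) throughout some group, and the brightest kept probe stood for its gene, named from the files and a GRCm38.p6 gene table. limma 3.58.1 (R 4.3.3) was fitted to all 6 arrays with 1 spread per gene (3 residual degrees of freedom), two-sided, with Benjamini-Hochberg adjustment over all genes and a threshold of 0.05. With 2 arrays a group, exact permutation p-values start at 0.333. The fit was tested on simulated data. The members and lists were chosen with earlier results of these data known. The naming rule took the 10 genes, the siRNA targets, the 2 genes of smallest p per list and comparison, and the 5 genes of most similar pattern; not all list genes are described. The alternatives were other background corrections, normalizations, filters, probe rules and variance settings, slide and replicate blocks, and leaving out each array. The number of arrays limits the precision.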

Additional observations from a re-analysis of the deposited data

How the results depend on the processing

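No member passed the adjusted threshold in the designed limma fit or in any alternative, except Herpud1 in the mean of both knockdowns with trended, robust variances (1 member called). Herpud1, Pdia6, Hspa5 and Dnajb9 kept their sign against NT in all 17 alternatives of both knockdowns, and Calr did so except with normexp and Thoc2 siRNA. The fit of every probe is not among the 17. In it the farthest upstream probe was above NT for Dnajb9 (0.14 with Thoc2 siRNA, 0.24 with Thoc5 siRNA) and Pdia6 (0.05 and 0.26). Over all genes, 0 were called in each comparison; trended, robust variances called 6 for Thoc2 siRNA, 643 for Thoc5 siRNA and 654 for their mean against NT, and requiring probes above background on all arrays called 507 for Thoc5 siRNA and 453 for the mean. With 2 arrays a group, the 95% intervals for Thoc2 siRNA against NT ran from -3.32 to 0.63 for Hspa5 and from -2.82 to 0.49 for Dnajb9, so differences well above their SE of 0.74 and 0.62 could not be seen. The causes of the changes below were not tested.

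The median of the 10 genes relative to all genes, -0.37 for Thoc2 siRNA against NT, was -0.87 with normexp, -0.28 with quantile normalization, -0.27 with the series table, -0.47 with no filter, -0.29 over every probe and -0.26 within the shared slide. For Thoc5 siRNA against NT it was -0.0027 as designed, -0.49 with normexp and -0.14 with no filter. For Thoc5 against Thoc2 siRNA it was 0.39, and 0.20 with normexp, 0.31 with quantile normalization, 0.30 with the series table, 0.33 with the stricter filter and 0.20 over every probe. For the mean against NT it was -0.25, and -0.73, -0.18 and -0.17 with those first 3 settings, -0.39 with no filter and -0.18 over every probe. Leaving out 1 array gave -0.46 to -0.33, -0.11 to 0.038, 0.13 to 0.42 and -0.31 to -0.11 in the same order. Without Thoc5 replicate 1, an alternative chosen after seeing the data, 3 members were higher than NT without overlap in place of 1. This count cannot fall when an array is left out. Normexp moved the median of all genes by 0.23, 0.33 and 0.28 against NT, and no filter by 0.10, 0.14 and 0.13.

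Signs turned for genes near 0. For Thoc2 siRNA against NT normexp gave Hsp90b1 -0.44, Calr -0.050 and Pdia3 -0.17, the slide as a random block gave Pdia3 -0.027, and the shared slide gave Hsp90b1 -0.0014 and Pdia3 -0.19. For Thoc5 siRNA against NT normexp gave Sdf2l1 -0.24; quantile normalization gave Hsp90b1 0.022 and Pdia3 0.0085, the series table gave them as 0.021 and 0.0088; and Xbp1 was 0.014 with the slide block and 0.0021 within the slide. For Thoc5 against Thoc2 siRNA normexp gave Hsp90b1 0.011. For the mean against NT normexp gave Hsp90b1 -0.43 and Calr -0.022, Pdia3 was 0.033 with quantile normalization, 0.019 with cyclic loess and 0.038 with the series table, and Pdia4 was 0.0069 with the series table.

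Leaving out 1 array turned these ranges across 0: Hsp90b1 -0.021 to 0.26 and Pdia3 -0.10 to 0.12 (Thoc2 siRNA against NT); Hsp90b1 -0.24 to 0.034, Pdia3 -0.15 to 0.022, Pdia4 -0.048 to 0.34 and Sdf2l1 -0.15 to 0.20 (Thoc5 siRNA against NT). The same held for Hspa5 -0.060 to 2.08, Pdia3 -0.18 to 0.039 and Dnajb9 -0.041 to 1.76 between the knockdowns. For the mean against NT it held for Pdia3 -0.12 to 0.058, Hsp90b1 -0.13 to 0.14 and Pdia4 -0.23 to 0.17.

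Whether the replicate numbers pair the arrays cannot be settled with 2 arrays per group. Deviations of same-numbered arrays correlated at -0.20 (NT and Thoc2), 0.14 (NT and Thoc5) and 0.22 (Thoc2 and Thoc5). With the replicate block 0 genes and 0 members were called in each comparison, and Herpud1 had adjusted p of 0.321, 0.236 and 0.215 (limma) for Thoc2, Thoc5 and their mean against NT.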

Other observations

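A few further genes that ER stress is known to raise were looked up after the values had been seen. Manf, a secreted factor of the ER lumen, differed from NT by -0.42 ± 0.16 with Thoc2 siRNA and -0.26 ± 0.16 with Thoc5 siRNA. Canx, the membrane-bound partner of calreticulin, differed by -0.29 ± 0.16 and -0.20 ± 0.16. For both genes all 4 knockdown arrays were below both NT arrays, which held for 16.6% of all genes. Derl1, a channel component of ER-associated degradation, was above NT on all 4 (14.2% of all genes were), by 0.40 ± 0.17 and 0.26 ± 0.17. Hyou1 (-0.05 ± 0.16 and -0.05 ± 0.16), Creld2 (0.06 ± 0.15 and 0.12 ± 0.15) and Dnajb11 (-0.04 ± 0.16 and 0.13 ± 0.16) overlapped NT. None passed the adjusted threshold (limma), with adjusted p of 0.337 and 0.439 for Manf, 0.451 and 0.554 for Canx, and 0.382 and 0.487 for Derl1.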
